A study of Mus musculus with 4 samples.

Results

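The keratins and the cornified envelope proteins of the Sprr and Lce families build the mechanical frame and the outer shell of the epidermis. All genes in the count tables whose symbol begins with Krt and a digit, with Sprr or with Lce were taken, 89 in all, and the 50 with at least 20 UMIs (unique molecular identifiers, each standing for 1 captured mRNA molecule) over the 4 libraries were kept as members. They comprise 34 keratins and 16 Sprr and Lce genes. Krt73, with 20 UMIs, was the member just inside the threshold and Krt32, with 19, the gene just outside it. Of the 39 genes left out, 12 had no UMI at all, and Krt2, a keratin of the upper epidermis, had 13.

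The study profiled back skin of BALB/c mice by droplet single-cell RNA sequencing of mRNA 3′ ends. One library came from wild-type (WT) mice and one from Cd226-/- mice, each painted with 25 µg of the mutagen DMBA (dimethylbenz[a]anthracene) and, from 1 week later, with 5 µg of the tumour promoter TPA (12-O-tetradecanoylphorbol-13-acetate) once a week for 3 weeks. Skin was digested with collagenase type IV. Each treated library pooled 3 mice, with CD45+ (blood-derived) and CD45- cells sorted and mixed in equal numbers. The remaining libraries were the CD45- and the CD45+ cells of untreated (naive) skin, each a pool of WT and Cd226-/- cells. Every group is therefore 1 library without a replicate, so no p-value is given. The 95% intervals are exact, cover counting error only and say nothing of differences between mice.

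Keratins are the intermediate filaments of epithelia and pair as a type I with a type II protein. Krt5 and Krt14 form the network of dividing basal keratinocytes, Krt1 and Krt10 replace them when cells leave the basal layer, Krt6, Krt16 and Krt17 appear in wounded or hyperproliferative epidermis and in the follicle, and another set is reserved for the hair shaft and its inner root sheath. Small proline-rich (Sprr) and late cornified envelope (Lce) proteins are cross-linked under the membrane of the dying outermost cells. In the annotation (GRCm38, the assembly also called mm10) 17 of the 18 type I members lie at chr11:99232761-100261029, the 16 type II members and the type I Krt18 at chr15:101347444-102032027 and the 16 Sprr and Lce members at chr3:92285417-92993426.

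The libraries held 5913 to 11875 barcodes and 42043869 to 81406730 gene UMIs. After filters 3335 to 10598 cells per library remained, with a median of 6555.5 to 9070 UMIs. Cells were clustered without the 50 members, so that their levels did not decide the clusters. Keratinocyte-like cells numbered 189 in the treated WT library, 18 in the treated Cd226-/- library, 44 in naive CD45- and 1 in naive CD45+. The desmosome gene Perp was found in 98.8% of them and Lgals7 in 99.2%, against 0.463% and 1.09% of fibroblast-like cells. Cldn4, a marker of the upper layers, was found in 6.75%. The WT keratinocytes had a median of 13796 UMIs and the naive ones 6085.5. Between any pair of libraries 6 to 18 barcodes of kept cells coincided.

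Over all barcodes the members had 54790 UMIs. The 252 keratinocyte-like cells held 58.8% of these, other named classes 31.1%, unnamed clusters 2.36% and barcodes left out by the filters 7.73%. Levels are given as UMIs per 1000000 UMIs of all genes in a class or library (counts per 1000000, CPM), a scale on which genes can be compared without regard to length because each molecule is counted at its 3′ end. Members made up 0.723% (0.713 to 0.733) of all keratinocyte UMIs in treated WT skin and 1.44% (1.40 to 1.48) in naive skin. A pool of 18 cells was below the minimum of 20 set for a library value, so the Cd226-/- keratinocytes enter below as single cells and pooled levels only.

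Among the basal keratins, Krt5 was at 1381 CPM (1339 to 1425) in treated WT keratinocytes, 564 (485 to 653) in the 18 Cd226-/- cells and 1841 (1705 to 1985) in naive ones, and was found in 180 of 189, 14 of 18 and 37 of 44 cells. Its partner Krt14 was at 1438 (1394 to 1482), 2596 (2423 to 2779) and 2652 (2489 to 2824), but 1 Cd226-/- cell held 730 of that library's 833 Krt14 UMIs. Krt15, a basal keratin typical of the follicle bulge, was at 1155 (1116 to 1195), 577 (496 to 666) and 3586 (3396 to 3785). All 3 basal keratins were lower in treated WT than in naive keratinocytes, by 1.33-fold for Krt5, 1.84-fold for Krt14 and 3.11-fold for Krt15, and none reached the 4-fold used here to call a difference.

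The suprabasal keratins separated the libraries most. Krt10 was at 26.8 CPM (21.1 to 33.5) in treated WT, 40.5 (21.6 to 69.3) in Cd226-/- and 2775 (2607 to 2950) in naive keratinocytes, 104-fold higher in naive than in WT (82.1 to 132). Krt1, its type II partner, was at 1515 (1392 to 1646) in naive keratinocytes. Not 1 of 189 WT or 18 Cd226-/- keratinocytes held a Krt1 UMI, and naive keratinocytes were 1451-fold above WT when the 0 of WT is set to 3 counts. Krt77, a keratin of suprabasal cells and sweat ducts, was at 429 (365 to 501) in naive cells and at 0 in both treated libraries, 411-fold apart from WT by the same rule. These naive levels rest on few cells. The 3 naive cells with most suprabasal keratin, each with 410 to 717 such UMIs and at most 2 UMIs of Krt14, held 96.1% of the total, 973 of 1022 for Krt10 and 556 of 558 for Krt1. In the other 41 naive keratinocytes Krt10 was at 154, Krt1 at 6.30 and Krt77 at 53.6 CPM. The suprabasal to basal ratio was 0.584 (0.550 to 0.620) in naive and 0.00674 (0.00532 to 0.00843) in WT keratinocytes. It was 0.354 in naive cells without the richest cell and 0.238 when each naive cell counted equally.

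Keratins linked to wounding stood the other way. Krt17 was at 1994 CPM (1943 to 2046) in treated WT, 1714 (1574 to 1864) in Cd226-/- and 912 (817 to 1015) in naive keratinocytes, 2.19-fold higher in WT than in naive (1.96 to 2.45). Krt6a was at 117 (105 to 130), 224 (176 to 283) and 2.71 (0.0687 to 15.1), a WT to naive ratio of 43.2 (7.70 to 1711) on 1 naive UMI. Krt16, the type I partner of Krt6, was at 29.6 (23.6 to 36.6) in WT and 2.71 (0.0687 to 15.1) in naive, a ratio of 10.9 (1.90 to 435). Its WT level came mostly from 1 cell with 61 of 85 UMIs. Krt6a was found in 19 of 189 WT cells, 3 of which held 217 of its 337 UMIs, and 1 Cd226-/- cell held 70 of that library's 72. Krt6a and Krt6b are near copies and reads they share are lost in counting, so their split is uncertain. The wound to basal ratio was 0.539 (0.522 to 0.556) in WT and 0.114 (0.101 to 0.127) in naive keratinocytes. It is mainly a Krt17 to basal ratio, as Krt17 gave 5730 of the 6152 wound keratin UMIs in WT and 336 of 338 in naive cells.

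Keratins of the hair and inner root sheath were abundant in treated WT keratinocytes and nearly missing in naive ones. Krt25, a type I keratin of the inner root sheath, was at 347 CPM (326 to 369) in WT, found in 78 of 189 cells, and at 318 (259 to 386) in Cd226-/- keratinocytes, found in 10 of 18. No naive keratinocyte held one, and WT was 42.6-fold higher with the 0 of naive cells set to 3 counts. Krt28 had 573 UMIs in WT and 0 in naive keratinocytes, 24.5-fold apart by the same rule. Krt35, a type I keratin of the hair shaft cuticle and matrix, was at 147 (133 to 162) in WT, with 372 of 423 UMIs in 3 cells, at 240 (189 to 300) in Cd226-/-, where 1 cell held 76 of 77, and at 0 in naive. Krt71 and Krt27, both of the inner root sheath, were 13.3-fold (2.34 to 531) and 13.4-fold (3.66 to 111) higher in WT, on 1 and 2 naive UMIs.

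Of the 24 members with at least 20 UMIs in the WT and naive keratinocytes together, 10 were at least 4-fold higher in WT and 5 at least 4-fold lower. Among all 9107 genes with as many UMIs the shares were 4.34% higher and 3.69% lower. By role, 6 of 7 hair and inner root sheath keratins, 2 of 3 wound keratins and 1 of 2 simple epithelial keratins were 4-fold higher, 3 of 3 suprabasal keratins were 4-fold lower, and 0 of 3 basal keratins were either. The median log2 ratio of WT to naive was 3.74 for the hair group, 3.45 for the wound group, -0.88 for the basal group and -8.68 for the suprabasal group, and 0.19 over all genes. The other 4-fold differences were in Krt23, higher in WT on 1 naive UMI, and in Krt79 and Krt80, lower in WT. Krt79, a keratin of sebaceous ducts and the follicle opening, was at 60.9 (52.2 to 70.6) in WT and 505 (435 to 583) in naive cells. Krt80, a keratin of differentiating epithelia, was at 0.696 (0.0843 to 2.51) and 109 (77.6 to 148).

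**Figure D1:**
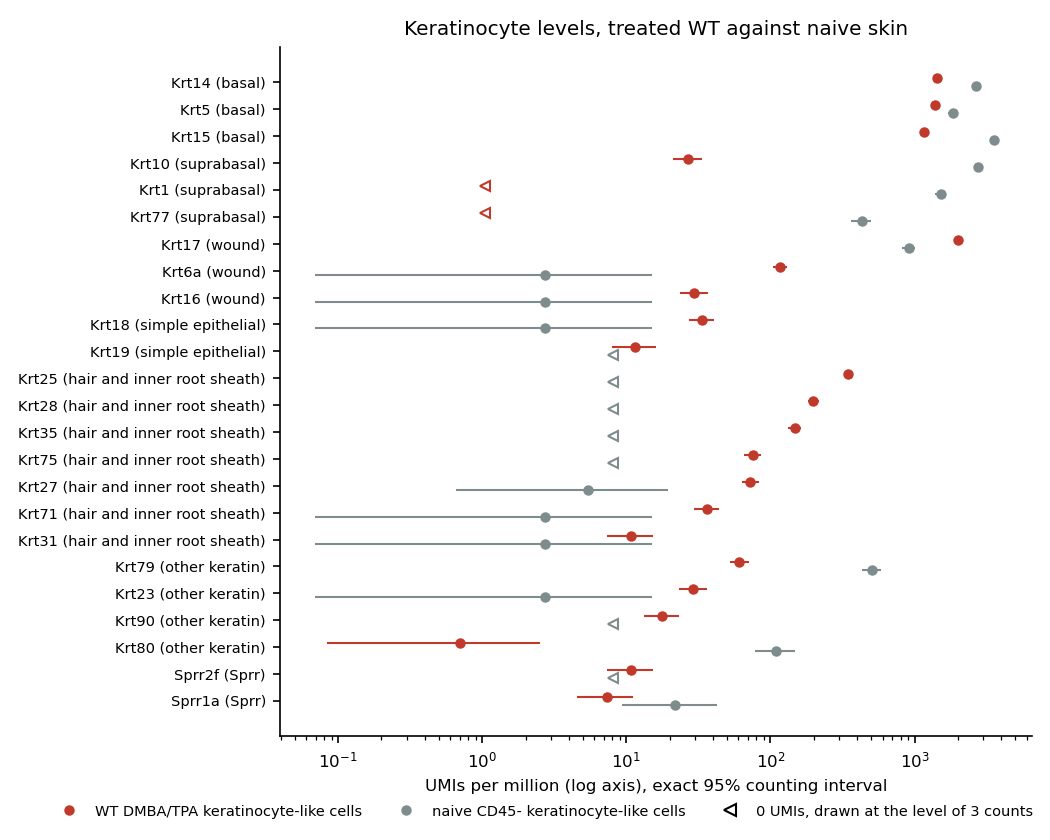
Level of the 24 members with at least 20 UMIs in treated WT (red, 189 cells) and naive CD45- (grey, 44 cells) keratinocyte-like cells, in CPM on a log axis with exact 95% counting intervals, open triangles marking 0 UMIs at the level of 3 counts. Krt1, Krt10 and Krt77 lie far to the right in naive cells, at 429 to 2775, and Krt25, Krt28 and Krt35 in treated WT cells, at 147 to 347.

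Genes that act beside the members showed the same split between cornification and hair. Of 11 measured genes of the cornified envelope and its assembly, 6 were at least 4-fold lower in treated WT keratinocytes and 1 was higher. Krtdap, a marker of early differentiation, was at 37.6 CPM in WT and 1572 in naive cells, and Calm4, a calmodulin-like protein of differentiating keratinocytes, at 1.39 and 532. The envelope precursor Ivl was the exception, at 16.4 and 2.71. Of 13 measured genes of the hair shaft and its regulators, 9 were at least 4-fold higher in WT and 1, Foxn1, lower. Msx2, a homeobox factor of the hair matrix, was at 101 in WT and 0 in naive cells, and Tchh, which encodes the trichohyalin of the inner root sheath, at 215 and 24.4. Among 8 desmosome genes only Dsg1a, a suprabasal cadherin, passed 4-fold, being lower in WT at 14.6 against 187. Of 9 transcriptional regulators, Klf4, a factor of terminal differentiation, did so, lower in WT at 54.3 against 662, while Trp63, the epithelial master regulator, was at 228 and 258. Of 5 wound and alarmin genes, Slpi was higher in WT at 64.7 against 13.6. These lists were fixed with results of the data already known.

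WT and naive keratinocytes were not drawn from the same states. Clustered without the members, the 252 cells fell into 7 states, named here by number and leading non-member genes. State 1 (Msx2, Dlx3) held 41 WT and 5 Cd226-/- cells, state 2 (Pthlh, Cmah) 44 WT cells, state 3 (Krtap8-1, Tchh) 37 WT and 2 Cd226-/- cells, state 6 (Tagln, Acta2, with Il17a also among its leading genes) 28 WT and 3 Cd226-/- cells and state 7 (Hist1h2ap, Ccnb1, both of dividing cells) 21 WT, 3 Cd226-/- and 1 naive cell. State 4 (Krtdap, Defb6) held 32 naive cells, 2 WT and 1 Cd226-/-. State 5 (S100a8, Cnfn) mixed 16 WT, 4 Cd226-/-, 11 naive CD45- and 1 naive CD45+ cell. Whether the treatment changed members within a state or changed which states were captured cannot be told apart.

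State 5 alone allowed WT and naive cells to be set side by side, 16 against 11, with medians of 20789.5 and 13138 UMIs. Its sebaceous markers averaged 3.53 and its suprabasal markers 2.94 log2 units above the mean of the 7 states, the highest of any state. It may thus mix cell types, and whether its WT and naive cells are of the same type was not tested. There Krt17 was at 2449 CPM (2285 to 2622) in WT and 44.1 (17.7 to 90.8) in naive cells. Krt6a was at 302 (247 to 367) in WT, found in 8 of 16 cells, and at 0 in naive ones, whose upper limit was 23.2. Krt16 was at 202 (157 to 256) and 0, with 61 of the 68 WT UMIs in 1 of its 4 positive cells. Krt14 was at 4652 (4425 to 4888) and 2159 (1936 to 2400), and Krt5 at 2372 (2211 to 2542) and 623 (506 to 759). Krt79 was at 297 (241 to 361) and 264 (191 to 357), intervals that overlap. The sign for Krt14 and Krt5 is thus opposite to that over all keratinocytes.

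Keratin levels differed among the 7 states. Of 32 members with at least 20 UMIs in keratinocytes, 20 were at least 4-fold higher in their top state than in the next, against 2.77% of 9397 genes. In state 5 lay 11 of the 20, 10 of them Sprr and Lce genes, whose UMIs came mostly from 2 Cd226-/- cells. With the WT library alone it was 11 of 21 members, against 4.44% of 8684 genes. State 2 led in Krt17 (7775 CPM), Krt5 (3490), Krt6a (532) and Krt14 (4516), the last nearly level with state 5 (4475). State 6 shared Krt15 with state 4, at 5219 and 5672, and led in Krt18 (144) and Krt19 (73.8), keratins of simple and progenitor epithelia. State 4 held Krt10 (4387), Krt1 (2398) and Krt77 (682), which were at most 36.9, 1.75 and 0 in every other state, but 3 of its 35 cells held 973 of the 1017 Krt10 UMIs and all 556 of Krt1. State 3 held the shaft and companion keratins Krt35 (764), Krt75 (286) and Krt31 (47.5, all 31 UMIs in 1 cell), and also Krt23 (112) and Krt90 (78.1). States 1 and 7, with Krt17 at 24.8 and 22.8 and Krt14 at 39.6 and 263, held Krt25 (433 and 920) and Krt28 (381 and 497), and Krt71 was highest in state 7 (137). In state 3 Krt25 was at 326 and Krt28 at 56.7. Of the 150 Krt14 UMIs of state 7, 126 were in its 1 naive cell. Krt27 was level across states 1, 3 and 7, at 106, 110 and 107.

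**Figure D2:**
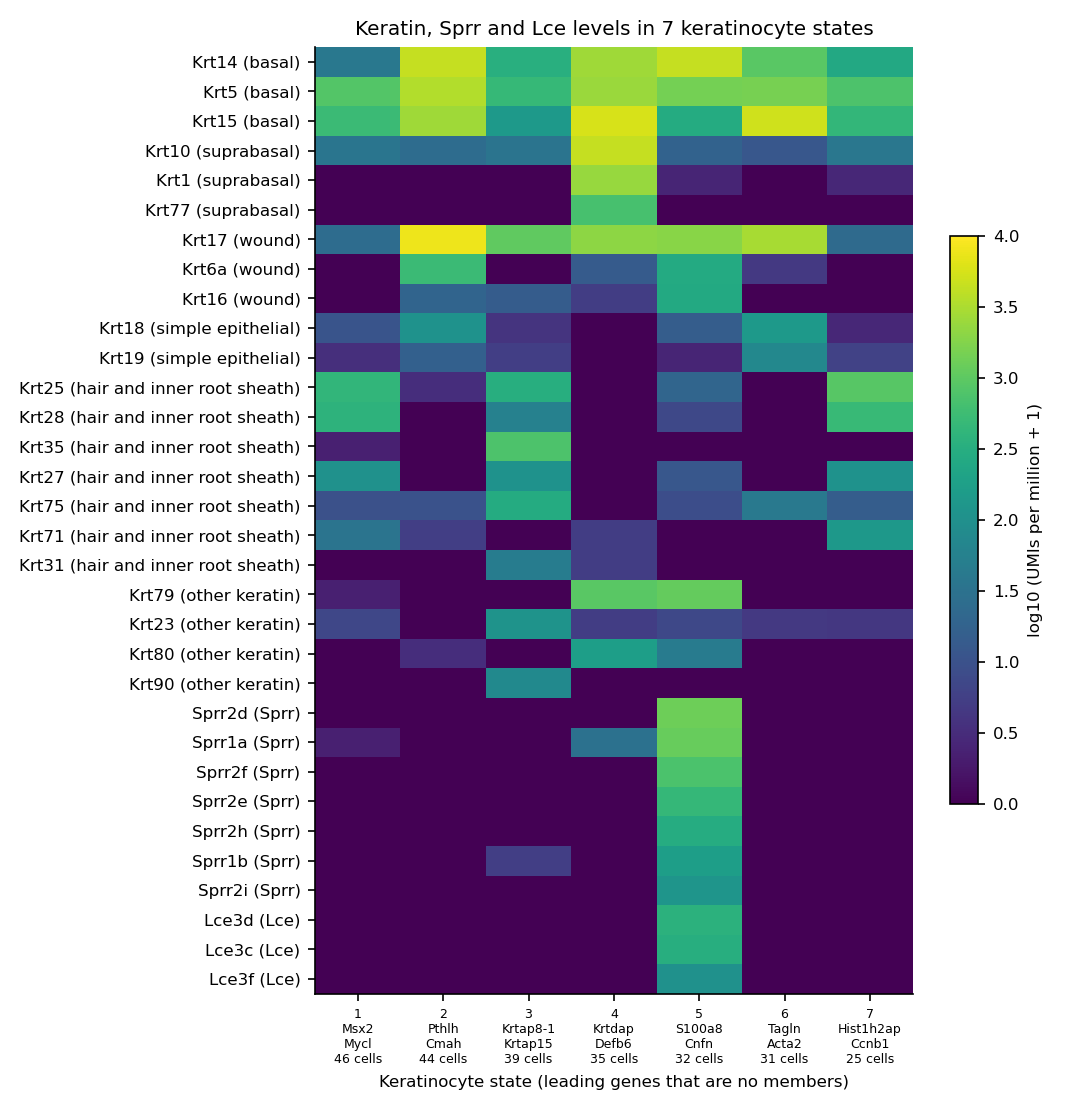
Level of the 32 members with at least 20 UMIs in keratinocytes (lines, with role) in the 7 keratinocyte states (columns, with 2 leading non-member genes and cell number), as log10 of CPM plus 1. Suprabasal keratins fill column 4, shaft keratins column 3, the inner root sheath keratins Krt25 and Krt28 columns 1 and 7, and Sprr and Lce genes column 5. Krt25 is also present in column 3, at 326 CPM.

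Members took 0.247% of all UMIs in state 1 and 2.16% in state 4. UMIs of type I keratins exceeded those of type II in every state, by 1.78-fold (1.63 to 1.96) in state 1 up to 5.98-fold (5.40 to 6.64) in state 6. Within the 189 WT keratinocytes, the genes most like Krt14 by Spearman correlation among 8354 genes were Sox9 (rho 0.66), Anxa2 (0.66) and S100a6 (0.65). Those most like Krt6a were Anxa8 (0.64), Dmkn (0.52) and Myof (0.50), and no gene exceeded 0.37 for Krt10. These correlations run over cells of 1 library that differ in depth and state, and are a description.

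Krt25 and Krt28 are type I genes of the same cluster, on the minus strand with Krt27 between them, at chr11:99315516-99322951 and chr11:99364872-99374903, and stood in the same proportion in WT and Cd226-/- keratinocytes, at 0.574 (0.517 to 0.637) and 0.578 (0.412 to 0.805) Krt28 UMIs per Krt25 UMI. The 250 bases before their starts, minus strand, from RefSeq (GRCm38.p6, chr11:99322952-99323201 and chr11:99374904-99375153), are shown because both genes were highest in states 7 and 1. Capitals mark the TATA box letters TATAAA and the LEF/TCF core CTTTGA, each searched on both strands.
Krt25: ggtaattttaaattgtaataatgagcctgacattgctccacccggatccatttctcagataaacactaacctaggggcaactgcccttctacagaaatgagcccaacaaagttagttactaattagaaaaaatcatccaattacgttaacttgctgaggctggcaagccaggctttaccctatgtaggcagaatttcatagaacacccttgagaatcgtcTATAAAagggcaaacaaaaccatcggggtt
Krt28: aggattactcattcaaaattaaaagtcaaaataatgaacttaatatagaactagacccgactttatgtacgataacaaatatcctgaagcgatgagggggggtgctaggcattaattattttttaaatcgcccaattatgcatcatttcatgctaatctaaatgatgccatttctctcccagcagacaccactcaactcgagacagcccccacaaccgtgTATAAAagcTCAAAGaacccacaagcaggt
Each window holds TATAAA starting 30 bases before the start, and that of Krt28 holds CTTTGA on the opposite strand. Without gaps 34.4% of their 250 positions are identical. TATAAA was found in 12.4% of all 32851 promoter windows of this length, and in 9 of the 21 keratin members with a window in the table. On the gene's strand, 20 to 45 bases before the start, it was found in 8 of these 21 and in 2.14% of all. CTTTGA was found in 3 of the 21 and in 13.8% of all.

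The Sprr and Lce genes followed another pattern, a few cells with very high counts. They had 4665 UMIs over 34306 barcodes, 78.1% of them in 3 cells. The treated Cd226-/- library held 3808, treated WT 838, naive CD45- 15 and naive CD45+ 4. Of the 18 Cd226-/- keratinocytes, a cell in state 5 held 2205 Sprr and Lce UMIs among its 17811, including 736 of Sprr2d, 638 of Sprr1a, 289 of Sprr2f and 265 of Sprr2e, together with 329 of Krt17, 86 of Krt16, 70 of Krt6a and none of Krt14 or Krt5. A further cell in state 5 held 942 among 7746, with 175 of Lce3d, 169 of Lce3c and 66 of Lce3f beside 139 of Sprr2f. In the 189 WT keratinocytes the family summed to 25.7 CPM (20.2 to 32.3), 64 of 74 UMIs in 1 cell, and in the naive ones to 21.7 (9.38 to 42.8). Lce genes were at 0 in both. With the richest cells of 1 library deciding the totals, no level of these families can be compared between genotypes.

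Langerhans-like cells also carried Sprr and Lce RNA. Langerhans cells are the dendritic cells of the epidermis, but the leading genes of this cluster were Ccl22 and Ccr7. Ccr7 was found in 72.1% of its cells and the Langerhans marker Cd207 in 64.0%. The class may therefore hold other dendritic cells as well. A WT cell of this class with 12575 UMIs held 497 of them, including 79 of Lce3e, 70 of Lce3a, 46 of Lce3b and 23 of Lce1a1. The 2 Cd226-/- keratinocytes just described held none of Lce3a, Lce3e or Lce1a1 and at most 2 of Lce3b. That Langerhans-like cell expressed 5 of 16 keratinocyte markers, 5 UMIs of Krt17 and none of Krt5 or Krt14, and had not been called a doublet. Of these markers, Epcam was found in 62.9%, Cldn1 in 56.6% and Cdh1 in 22.2% of all Langerhans-like cells. The median in WT Langerhans-like cells was 2 of 16. With cells of at least 10 member UMIs set aside, Sprr and Lce genes were at 22.7 and 25.2 CPM in WT and Cd226-/- Langerhans-like cells, against 1.01 and 1.19 in macrophage-like cells of the same libraries. The 33 Langerhans-like cells of naive skin held none. Among other keratinocyte markers, Lgals7 was found in 23.0% of Langerhans-like and 1.84% of macrophage-like cells, Perp in 1.84% and 0.448%, and the part of keratinocyte material in the Sprr and Lce level was not tested.

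Most Sprr promoters hold the same pair of motifs. The 250 bases before the start of 4 of them, of the Sprr1 and Sprr2 groups, are from the same table, for Sprr1a (minus strand, chr3:92485882-92486131), Sprr1b (minus strand, chr3:92438780-92439029), Sprr2d (plus strand, chr3:92338890-92339139) and Sprr2e (plus strand, chr3:92351893-92352142). Capitals mark TATAAA and the AP-1 site TGANTCA.
Sprr1a: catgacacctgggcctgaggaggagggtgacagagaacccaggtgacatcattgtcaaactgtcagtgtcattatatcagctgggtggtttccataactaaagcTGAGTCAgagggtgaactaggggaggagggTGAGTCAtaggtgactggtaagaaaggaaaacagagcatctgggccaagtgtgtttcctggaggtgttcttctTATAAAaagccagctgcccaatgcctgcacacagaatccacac
Sprr1b: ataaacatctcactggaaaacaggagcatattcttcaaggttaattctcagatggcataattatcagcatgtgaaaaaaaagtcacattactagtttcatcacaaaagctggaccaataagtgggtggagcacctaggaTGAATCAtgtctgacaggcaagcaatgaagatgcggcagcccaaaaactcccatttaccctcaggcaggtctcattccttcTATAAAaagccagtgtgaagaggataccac
Sprr2d: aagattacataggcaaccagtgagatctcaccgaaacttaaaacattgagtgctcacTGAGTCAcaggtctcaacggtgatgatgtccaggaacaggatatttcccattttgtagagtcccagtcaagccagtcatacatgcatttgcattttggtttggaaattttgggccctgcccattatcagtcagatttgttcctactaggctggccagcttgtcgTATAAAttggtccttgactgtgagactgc
Sprr2e: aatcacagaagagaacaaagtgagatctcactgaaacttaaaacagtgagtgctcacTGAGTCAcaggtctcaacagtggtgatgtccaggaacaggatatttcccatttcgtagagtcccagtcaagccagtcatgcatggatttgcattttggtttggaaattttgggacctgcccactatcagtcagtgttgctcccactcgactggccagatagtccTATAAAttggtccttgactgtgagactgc
TGANTCA was found in 8 of 9 Sprr members, 0 of 7 Lce members and 1 of 21 keratins, and in 6.75% of all windows. The same 8 Sprr windows hold TATAAA on the gene's strand 20 to 45 bases before the start, as against 0 of 7 Lce windows. Sprr1a and Sprr1b are identical at 25.6% of the 250 positions and Sprr2d and Sprr2e at 88.0%. Reads that the transcripts of near copies share are lost in counting, so the split among Sprr2 genes is uncertain. A match to these letters does not show that a factor binds there.

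Outside keratinocytes, a few cells rich in many members held a large share of the keratin RNA in several classes of the treated WT library. In its fibroblast-like cells 15 of 4054 cells, those with at least 20 member UMIs, held 24.4% of the members' UMIs, and the richest held 600 and expressed 14 of 16 keratinocyte markers. In macrophage-like cells 1 cell of 319 held 80.3%, in Langerhans-like cells 3 of 270 held 72.9% and in neutrophil-like cells 5 of 233 held 78.9%. The share was 5.14% in treated Cd226-/- and 14.1% in naive CD45- fibroblast-like cells, and 0 of 342 Cd226-/- macrophage-like cells reached 20 member UMIs. By class, the WT rich cells expressed a median of 5 to 11 of the 16 keratinocyte markers. The median was 11 in melanocyte-like and 5 in Langerhans-like rich cells, against 1 and 2 over all WT cells of these classes. Members summed to 114 CPM (111 to 117) in WT fibroblast-like cells and to 81.9 without cells of 10 or more member UMIs. In WT Langerhans-like cells the sum was 291 (272 to 311) and 76.1 without such cells.

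In the remaining cells the level was low but not even across classes. How much of it is free RNA from broken cells was not tested. Krt5, Krt14, Krt15 and Krt17 together were at 5968 CPM in WT keratinocytes and, in cells under 10 member UMIs, at 2.48 in fibroblast-like, 5.07 in macrophage-like and 22.0 in Langerhans-like cells of that library. In the Cd226-/- library the same values were 0.377, 3.16 and 19.8. Langerhans-like cells were thus 4.35-fold (2.22 to 9.51) and 6.26-fold (3.01 to 15) above macrophage-like cells once rich cells were set aside. Over all cells the order was the opposite in WT, at 38.1 and 146 CPM, a ratio of 0.261 (0.209 to 0.326), with 1 macrophage-like cell holding most of the members' UMIs, while in Cd226-/- it was 23.1 and 7.78, a ratio of 2.97 (1.81 to 5.10). A UMI of these 4 genes was found in 17.8% of WT Langerhans-like cells (median 9520 UMIs) and 3.76% of macrophage-like cells (median 4958), and after thinning each cell to 1000 UMIs in 4.44% and 0.313%.

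**Figure D3:**
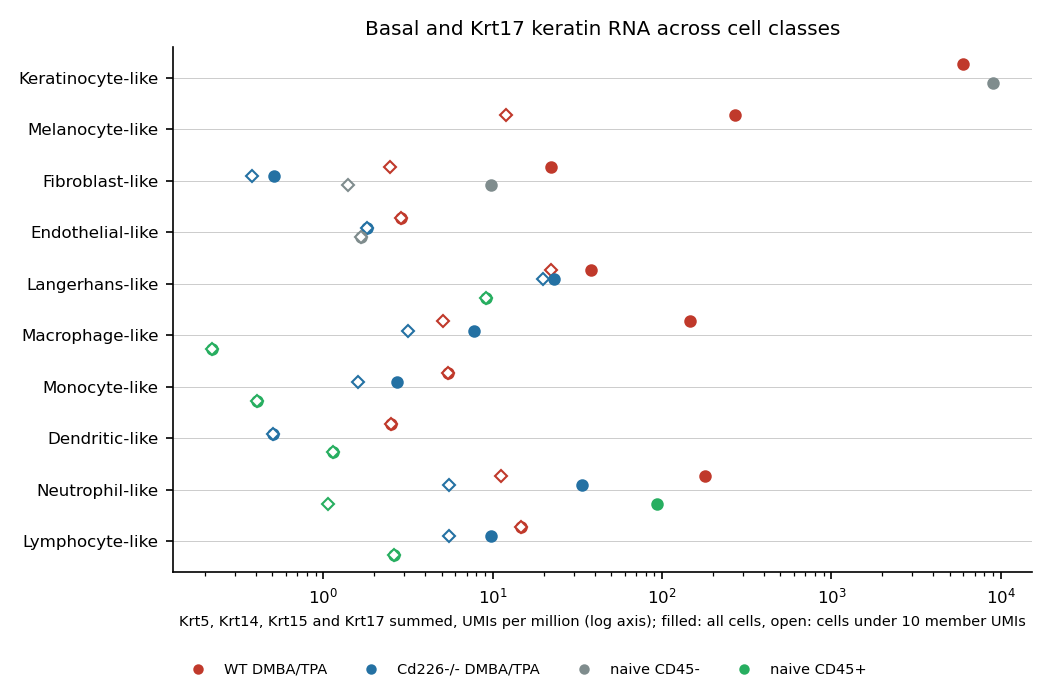
Summed level of Krt5, Krt14, Krt15 and Krt17 by cell class and library in CPM on a log axis, filled circles for all cells and open diamonds for cells under 10 member UMIs (classes of at least 20 cells in a library; levels of 0 not drawn). Keratinocyte-like cells lie at 5968 and 8992, and among the other classes without rich cells the Langerhans-like cells of the treated libraries are highest, at 22.0 and 19.8.

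Krt10 was widespread in fibroblasts, with very little of its partner Krt1. In fibroblast-like cells it was at 56.5 CPM in treated WT, 31.8 in treated Cd226-/-, 26.7 in naive CD45- and 40.2 in naive CD45+, found in 1439, 852, 1610 and 61 cells. The WT value is above the 26.8 of WT keratinocytes, and the naive CD45- value level with it. In naive keratinocytes Krt10 and Krt1 stood at a ratio of 1.83 (1.65 to 2.03). In fibroblast-like cells the ratio was 324 (164 to 750), 148 (75.1 to 345) and 209 (110 to 457) in the first 3 libraries. WT keratinocytes, with 77 Krt10 and 0 Krt1 UMIs, had a ratio of at least 20.4 by the lower end of its interval. The richest fibroblast held 13 Krt10 UMIs, so the total is spread over many cells. Treated WT fibroblasts were 1.78-fold (1.66 to 1.91) above Cd226-/- ones. By cluster it was at 76.2 and 38.9 in cluster 8 (Prg4, Saa3), 49.7 and 23.9 in cluster 7 (Cilp, Myoc), and 36.3 and 33.2 in cluster 9 (Mrgprg, Cxcl13). In cluster 5 (also led by Prg4 and Saa3) it was at 34.9 and 30.7. The ratios in clusters 9 and 5, 1.09 (0.931 to 1.28) and 1.14 (0.953 to 1.36), have intervals that include 1. Cluster 8 held 1543 of the 4054 WT and 430 of the 2740 Cd226-/- fibroblast-like cells. Macrophage-like cells were at 8.96 and 6.61 in the treated libraries and 6.68 in naive CD45+. The 250 bases before the Krt10 start (minus strand, chr11:99389365-99389614) hold TATAAA, in capitals, 26 bases before it.
Krt10: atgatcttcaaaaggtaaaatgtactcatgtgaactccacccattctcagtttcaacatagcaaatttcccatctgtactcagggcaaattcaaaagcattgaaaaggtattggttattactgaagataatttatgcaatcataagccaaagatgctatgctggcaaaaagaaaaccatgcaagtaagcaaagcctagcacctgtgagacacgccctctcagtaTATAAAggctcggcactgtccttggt
The gene lies at chr11:99385254-99389364 and the antisense gene Gm11940 overlaps it on the other strand.

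**Figure D4:**
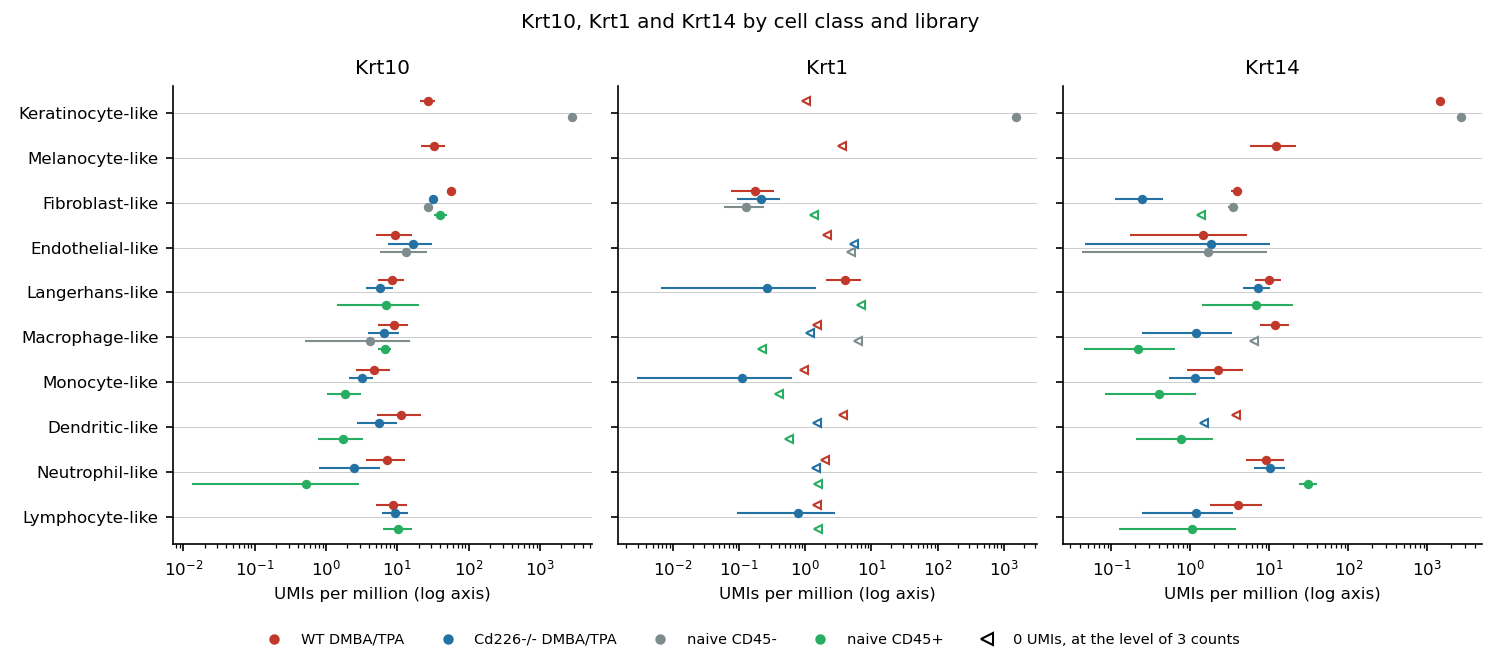
Krt10, Krt1 and Krt14 levels by cell class and library in CPM on log axes, with exact 95% counting intervals and open triangles for 0 UMIs at the level of 3 counts (classes of at least 20 cells in a library). Krt10 lies at 26.7 to 56.5 in the fibroblast-like cells of the 4 libraries, where Krt1 lies below 1 in each library that held a UMI of it.

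Of the 44 members with at least 20 UMIs in some named class, 30 had their highest level in keratinocytes and 14 elsewhere. Among all 15650 genes so placed 82.0% were highest outside keratinocytes. Without cells of 10 or more member UMIs outside keratinocytes, 8 of the 14 stayed outside. The 6 that did not were Sprr2b, Lce1a1, Lce3a, Lce3b and Lce3e, which then had under 20 UMIs in any class, and Krt71, which came from 1 melanocyte-like cell with 32 of 35 UMIs. Of the 8, Krt36 and Krt12 were placed in fibroblasts by the 20 UMI minimum, though keratinocytes held more CPM on fewer counts, 3.33 against 1.91 and 0.278 against 0.180. Krt6b was at 4.02 in Langerhans-like cells, in 22 cells.

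Summed over all libraries Krt80 was highest in monocyte-like cells, at 36.3 CPM against 30.3 in dendritic-like cells and 19.2 in keratinocytes. The keratinocyte value hides a split by library. Keratinocytes were at 0.696 in treated WT, 84.1 (55.5 to 122) in Cd226-/- and 109 (77.6 to 148) in naive CD45- skin. All 27 Cd226-/- UMIs were in 1 cell. The Cd226-/- and naive keratinocyte levels are above those of monocyte-like cells in any library. Krt80 was at 44.6 CPM in monocyte-like cells of treated WT, 41.1 in treated Cd226-/- and 27.1 (23.5 to 31.1) in naive CD45+ skin, over 705 UMIs in 483 cells with at most 7 each. Dendritic-like cells were at 21.3 (12.4 to 34.2), 33.2 (25.7 to 42.3) and 30.7 (26.1 to 35.8), the last above the monocyte-like cells of naive CD45+ skin though with overlapping intervals. They were followed by neutrophil-like cells at 12.4, 20 and 13.1 and macrophage-like cells at 10.5 to 18.3 across libraries. Lymphocyte-like cells were lower, at 0.507 to 2.60. Fibroblast-like cells were at 7.32, 10.5, 9.25 and 8.59, with 296 of 335 WT and 348 of 391 Cd226-/- UMIs in cluster 9 and 513 of 649 naive CD45- UMIs in cluster 13 (Sfrp2, Smpd3). Cluster 9 was at 37.2 (33.1 to 41.7) in WT and 33.9 (30.4 to 37.7) in Cd226-/- cells, and cluster 13 in naive CD45- cells at 29.6 (27.1 to 32.2). Cluster 8 was at 1.20 and 2.13. The antisense gene Gm35853 overlaps Krt80 along its whole length, and whether counting used the strand is not given in the sources used here.

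The same 2 fibroblast clusters carried other members. Krt36, a hair shaft keratin, was at 7.03 (5.31 to 9.13) and 4.97 (3.70 to 6.53) in cluster 9 and 8.13 (6.84 to 9.59) in cluster 13, against 0.599 and 0.224 in cluster 8. Krt23 was at 13.2 (10.8 to 16.0) and 10.5 (8.63 to 12.7) in cluster 9 and 3.29 (2.49 to 4.26) in cluster 13, and at 0 in the 3330 naive cells of cluster 26. Krt13, a keratin of mucosal epithelia, was at 2.88 (2.14 to 3.80) in cluster 13. In WT keratinocytes Krt23 was at 29.2, Krt36 at 3.83, Krt80 at 0.696 and Krt13 at 0.

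Krt83, annotated as a hair keratin, was at 40.5 CPM in lymphocyte-like cells and 1.11 in keratinocytes. By library it was at 52.2 (42.6 to 63.3) in treated WT, 40.8 (33.3 to 49.4) in treated Cd226-/- and 28 (21.1 to 36.6) in naive CD45+ lymphocytes. WT was 1.28-fold (0.964 to 1.70) above Cd226-/- and 1.86-fold (1.33 to 2.64) above naive. In 16859 fibroblast-like cells it was at 0.0514. Lymphocyte-like cells without a Trdc UMI, the constant region of the γδ T cell receptor, were at 65.0 (56.8 to 74.1) and those with one at 12.6 (8.90 to 17.3), in the same order in each library, at 72.6 and 14.4 in WT, 69.9 and 11.8 in Cd226-/- and 46.9 and 12.4 in naive. Cells without Cd3e were at 68.2 (56.5 to 81.5) and those with it at 30.2 (25.4 to 35.6), with median depths of 3962.5 and 3954.5 UMIs.

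Krt4, a keratin of mucosal epithelia, was at 180 CPM (117 to 264) in the 60 mast or basophil-like cells, which held 26 of its 29 UMIs. It was found in 19 of these cells and in each library that had more than 10 of them, at 153 (on 4 UMIs), 170 (90.5 to 291) and 215 (98.2 to 408). Keratinocytes held none.

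Krt20, a keratin of gut and urothelial epithelia, separated the fibroblasts of the treated libraries. It was at 6.66 CPM in treated WT fibroblast-like cells, 0.402 in treated Cd226-/-, 6.61 in naive CD45- and 5.88 in naive CD45+, the last 2 being pools of both genotypes. In naive CD45+ skin 1 cell held 9 of 13 UMIs, and in the other libraries no fibroblast held over 4. WT was 16.6-fold above Cd226-/-, with a lower limit of 9.90. Within cluster 8 it was at 10.4 (9.09 to 11.7) and 0.896 (0.387 to 1.77), within cluster 9 at 4.65 (3.27 to 6.40) and 0.487 (0.158 to 1.14), and within cluster 7 at 4.80 (2.40 to 8.58) and 0, with an upper limit of 0.580. Keratinocyte-like cells held no Krt20 UMI. In the blood vessel cells of cluster 24 (Gpihbp1, Cldn5) it was at 14.5 (8.12 to 23.9) in WT and 11.7 on 4 UMIs, with a lower limit of 3.20, in Cd226-/-, intervals that overlap. With 1 library per genotype, genotype and library cannot be told apart. Its upstream 250 bases (minus strand, chr11:99438154-99438403) hold TATAAA, in capitals, 29 bases before the start.
Krt20: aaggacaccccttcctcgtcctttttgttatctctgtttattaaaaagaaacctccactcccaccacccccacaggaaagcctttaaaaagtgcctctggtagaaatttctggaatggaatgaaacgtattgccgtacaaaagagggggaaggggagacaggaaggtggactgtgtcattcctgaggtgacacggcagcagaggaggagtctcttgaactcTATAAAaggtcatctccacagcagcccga
Over the 19 members with at least 20 UMIs in treated fibroblasts, 9 were at least 4-fold higher in WT and 1 lower, against 1.03% and 0.669% of 13742 genes. Of these, Krt5, Krt14, Krt15, Krt17 and Krt6a are the main keratinocyte members, and the WT library held 189 keratinocytes against 18. Without cells of 10 or more member UMIs, 3 of 13 members were higher and 0 lower, against 127 and 93 of 13700 genes. The 3 were Krt20 at 16.3-fold (9.72 to 29.5), Krt17 at 13.2-fold (3.36 to 113) and Krt5 at 6.85-fold (2.09 to 35.5). Krt17 rests on 32 WT and 2 Cd226-/- UMIs and Krt5 on 25 and 3, and both intervals reach below 4-fold.

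**Figure D5:**
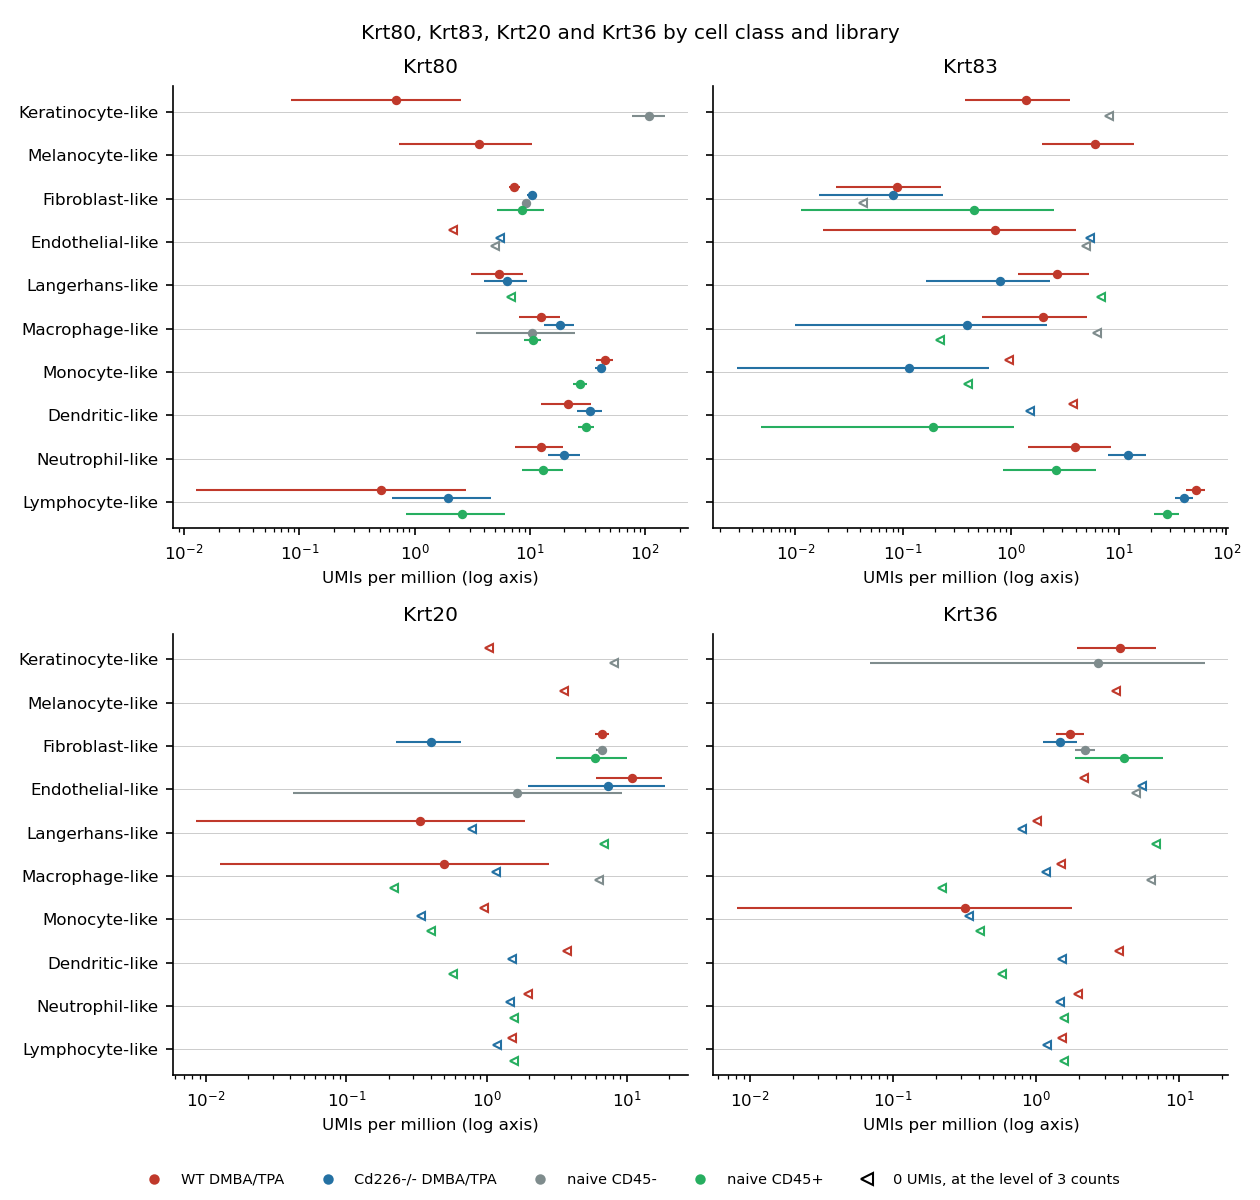
Krt80, Krt83, Krt20 and Krt36 levels by cell class and library in CPM on log axes, with exact 95% counting intervals and open triangles for 0 UMIs at the level of 3 counts (classes of at least 20 cells in a library). Among the classes drawn, Krt80 in the treated libraries is highest in monocyte-like cells, Krt83 in lymphocyte-like cells at 28 to 52.2, and Krt20 in Cd226-/- fibroblast-like cells lies at 0.402 against 5.88 to 6.66 in the other libraries. Krt80 lies at 109 in naive CD45- keratinocyte-like cells, and the 18 Cd226-/- keratinocyte-like cells are not drawn.

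Krt25 also appeared outside keratinocytes, out of proportion to Krt28. WT fibroblast-like cells held 402 Krt25 and 35 Krt28 UMIs, a ratio of 0.0871 (0.0598 to 0.123), and Cd226-/- ones 77 and 8, a ratio of 0.104 (0.0433 to 0.215). Both lie below the 0.574 of WT keratinocytes, but that value is pooled over states that differed. WT keratinocytes held 281 Krt28 and 305 Krt25 UMIs in state 1, 251 and 478 in state 7, and 37 and 202 in state 3. WT melanocyte-like cells, at 0.527 (0.395 to 0.700), were near the pooled value. However, 9 of these 65 cells, with a median of 11 of 16 keratinocyte markers, held 92.0% of the class's member UMIs. In Cd226-/- melanocyte-like cells the ratio was 0.333 (0.0948 to 0.965). Without cells of 10 or more member UMIs, Krt25 in WT fibroblast-like cells fell from 402 to 122 UMIs, from 8.78 to 2.70 CPM. Of the 402 WT fibroblast UMIs 360 were in cluster 8, at 15.4 CPM (13.9 to 17.1) in WT and 4.37 (3.11 to 5.97) in Cd226-/- cells, with 39 UMIs in the richest WT cell. The simple epithelial keratins were low. Krt18 was at 33.4 (27.1 to 40.8) in WT keratinocytes and its partner Krt8 at 5.92 (3.45 to 9.47), and Krt19 at 11.5 (7.90 to 16.1). Sprr2a3, Krt222, Krt7, Krt86, Krt73 and Krt8 did not reach 20 UMIs in any class.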

How the data were processed

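The authors deposited UMI counts per gene and barcode for 4 libraries (10x 3′ chemistry). Cell Ranger 3.1.0 and the mm10 genome are named per the submitters' processing notes. Reads that match several genes are not counted by that tool, so the split among Sprr2a copies, Sprr2 genes, Krt6a and Krt6b, and Lce3 genes is uncertain. Barcodes under 500 genes, under 1000 UMIs or over 10% mitochondrial UMIs were dropped, as were Scrublet's doublet calls. In naive CD45+ Scrublet called 9 barcodes (0.256%), which was taken as failed, and the top 5% by score were removed. Cells were clustered by Leiden (2000 variable genes without members, 30 components, 15 neighbours, resolution 1.0) into 29 clusters and named "-like" from fixed markers, and keratinocytes were clustered again. Counts were summed per class and library and divided by all UMIs of the class, per 1000000. Intervals are exact Poisson (levels) or exact conditional binomial (ratios) at 95%. A class without UMIs was set to 3 counts for a fold. The interval method was tested on simulated data. Per role, the 4 members with most keratinocyte UMIs, every member highest in another class and those at the threshold are named. Members, lists and tests were chosen with earlier results of these data known. Promoter sequences are RefSeq's, with 37 of 50 members matched by symbol. Alternatives were other filters, doublets kept, a finer clustering, equal cell weights and leaving out rich cells. Python 3.11.15, scanpy 1.11.5, leidenalg 0.10.2, scipy 1.17.1, numpy 2.4.6, pandas 2.3.3 and matplotlib 3.10.9 were used.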

Additional observations from a re-analysis of the deposited data

Results flagged for a closer look

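Barcodes that the cell filters removed held keratin RNA in quantity. In treated WT skin 20 of 1485 removed barcodes held at least 20 member UMIs each, 1418 in all, with a median of 13256 UMIs, 4.24% mitochondrial UMIs and 10 of 16 keratinocyte markers, led by Krt14 (371 UMIs), Krt17 (327) and Krt15 (324). In treated Cd226-/- skin 4 of 1470 did, with 271 member UMIs, led by Krt15 (114), and a median of 8.89% mitochondrial UMIs. In naive CD45- skin 20 of 1277 did, with 1056 member UMIs led by Krt14 (290) and a median of 11.4% mitochondrial UMIs, above the limit of 10%. In naive CD45+ skin 0 of 2578 did. The WT and Cd226-/- mitochondrial medians lie within the limit of 10%, and called doublets were also among the removed barcodes. How many of the barcodes described here were called doublets was not counted.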

How the results depend on the processing

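Without replicates, "moved" means beyond the counting interval. Of 92 alternative values for the 20 main results 47 stayed within it and 45 moved. For 130 single-gene levels 51 of 420 moved. A change of direction was not scored. No paired analysis was possible because each group is 1 library. With mitochondrial UMIs up to 20%, called doublets kept, resolution 2.0, equal cell weights or without the richest cell of each library, the member share of keratinocyte UMIs was 0.684, within the interval, 0.842, 0.888 and 0.697% in WT (main 0.723%) and 1.34, 1.68, 1.79, 1.65 and 1.30% in naive skin (1.44%). The wound to basal ratio was 0.515, within, 0.505, 0.557 and 0.514 in WT (0.539), and in naive skin (0.114) 0.142, 0.127 and, weighted equally, 0.163. The naive suprabasal to basal ratio (0.584) was 0.336, 0.387, 0.631, 0.238 and 0.354. The WT Sprr and Lce level (25.7 CPM) was 69.7 weighted equally. The fibroblast member level was 119, 110 and 95.1 under the first 3 settings and 101 without the richest cell in WT (114), and in naive CD45- skin (59.4) 70.2 with more mitochondrial UMIs, 55.1 at resolution 2.0 and 56.9 without the richest cell. The Langerhans level was 416, 311, 441 and 119 in WT (291), and 150 with more mitochondrial UMIs, 149 at resolution 2.0 and 104 without the richest cell in Cd226-/- (126). Without cells of 10 or more member UMIs fibroblasts were at 81.9, 52.0 (main 55.8, Cd226-/-) and 50.8, and Langerhans-like cells at 76.1 and 68.1. The following were chosen after seeing the data: without such cells, members highest outside keratinocytes fell from 14 to 8, members 4-fold higher in WT than in Cd226-/- fibroblasts from 9 to 3 and lower from 1 to 0. Members 4-fold higher in 1 state were 11 in place of 20 with WT cells only. The depth of 18 Cd226-/- keratinocytes, 320861 UMIs, allows a level of up to 11.5 CPM at 0 UMIs.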
